A study of Mus musculus with 24 samples.

Results

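Follicular regulatory T cells (TFR) were compared with regulatory T cells (Treg) of treated mice across all genes, using 6 of the 24 libraries of the series, 3 of each cell type. The mice were female NZBWF1/j, hybrids that fall ill spontaneously with an autoimmune disease resembling lupus. From 23 weeks of age they had been given recombinant mouse OX40L and JAG1 into the peritoneum, each at 2 mg/kg, on 3 weekly occasions, and cells were taken at week 26. OX40L is the ligand of the costimulatory receptor OX40, and JAG1 is a ligand of Notch receptors. TFR cells had been sorted as CD4+ cells with CXCR5, high PD1 and high GITR. Treg cells had been sorted as CD4+ cells without CXCR5 but with GITR. Used beside them were the TFR and Treg libraries of control mice of the same age and sex, which had received PBS. Of treated mice, TFH cells (CD4+, CXCR5+, PD1 high, GITR negative or low) and Tconv cells (CD4+, negative for CXCR5 and GITR) were also used, and each group had 3 libraries. The labels do not state which organ was sorted. The sort used GITR rather than Foxp3, so activated cells that carry GITR can fall in either gate. Nothing in the labels ties libraries to separate mice, so p-values measure the spread between libraries, which may be technical.

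Treg cells restrain immune responses and depend on the transcription factor Foxp3. A fraction of them acquires CXCR5 and Bcl6, the receptor and the transcription factor that also define follicular helper cells, enters B cell follicles and limits germinal centre and antibody responses as TFR cells. Cells that leave the recirculating pool are known to lose Klf2 and the exit receptor S1pr1, which hold lymphocytes in circulation. The comparison therefore sets a follicular regulatory cell beside the non-follicular regulatory cell of the same animals' strain and treatment.

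Total RNA was sequenced, and levels below are CPM, that is counts relative to a TMM-adjusted library total, always for libraries 1, 2 and 3 in turn. Depth was 35368089 to 50915959 counts in the treated TFR and 38234242 to 53788643 in the treated Treg libraries. It was 4848261 to 9622781 in control TFR and 27103579 to 28032693 in control Treg libraries. Libraries TFR 1 and Treg 3 held transcripts of kidney cells. The 12 podocyte markers summed to 719, 21.4 and 19.1 CPM in TFR and 25.5, 27.2 and 202 CPM in Treg libraries, and the proximal tubule markers to 286, 6.93 and 4.4 CPM and 4.9, 4.67 and 81 CPM. Results are therefore also given without these and the other 3 libraries of the series that hold such transcripts. Summed T cell markers (Cd3e, Cd4, Lck and others) overlapped, at 2489.7, 2858 and 2997 CPM in TFR and 2755, 2802 and 2496 CPM in Treg libraries, and none of the 7 passed the threshold. The counting had no stated strand setting, so for genes that overlap another gene (among those below Aldoa, Bach2, Bcl6, Cebpa, Cxcr5, Eomes, Foxp3, Gapdh, Hif1a, Ikzf2, Il21, Itga4, Jun, Notch1, Pax5, Pkm, St8sia6, Stat3, Tnfrsf18 and Tpi1) reads of the partner may be included. Since these are bulk samples, fewer cells of a type and less RNA per cell cannot be told apart.

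**Figure D1:**
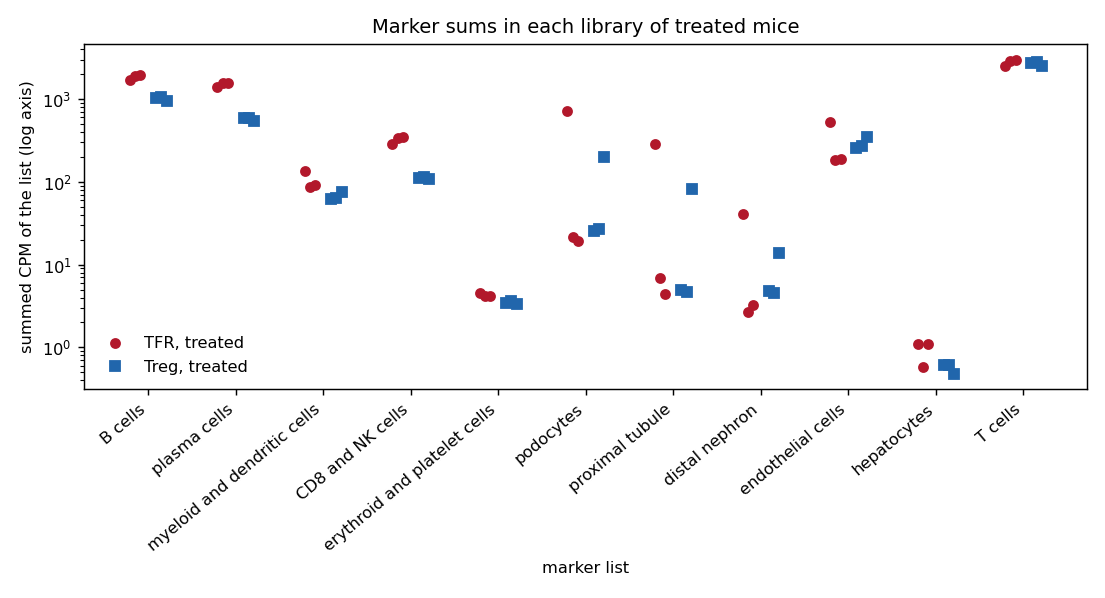
Summed CPM of 11 marker lists (log axis) in each treated TFR library (red circles) and treated Treg library (blue squares), in the order of library numbers. Podocyte, proximal tubule and distal nephron sums stand high in TFR 1 and Treg 3, while plasma cell, B cell and CD8 and NK cell sums are higher in every TFR library.

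Of 18789 genes tested, 334 were higher (1.78%) and 532 lower (2.83%) in TFR than in Treg cells at an adjusted p under 0.05 by edgeR's quasi-likelihood test. Of these, 86 rose and 86 fell by more than 2-fold. In all 866 the CPM values of the groups did not overlap; among all genes tested, 24.7% had every TFR value above every Treg value and 21.6% had every one below. Among named genes that also passed without the kidney libraries, and whose higher group averaged at least 5 CPM, immunoglobulin genes left aside, Dnase1l3, Apoe, Cebpa, Asb2, Jchain and Pou2af1 were furthest up and St8sia6, Scml4, Slfn1 and Lpar6 furthest down. The median log2 fold change (log2FC) of all genes tested was 0.12, and 0.03 without the kidney libraries. Without those libraries 143 genes (0.71% of 20151) were higher and 187 (0.928%) lower, and 316 of the 866 genes passed in the same direction in both fits, 132 up and 184 down. That fit rests on TFR 2 and 3 and Treg 1 and 2 only. In a call lost there, the absence of kidney transcripts and the smaller number of libraries cannot be told apart. Leaving out 1 of the 6 libraries at a time left 260 higher and 287 lower without TFR 1, 172 and 342 without TFR 2, 164 and 316 without TFR 3, 180 and 311 without Treg 1, 192 and 328 without Treg 2, and 154 and 353 without Treg 3. With only the 6 libraries in the fit, where the spread was estimated from TFR and Treg libraries alone, 3168 genes (19.4% of 16294) were higher and 3559 (21.8%) lower. Adjusted p-values of that fit, given below for some genes that did not pass with all libraries, are to be read beside these shares.

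**Figure D2:**
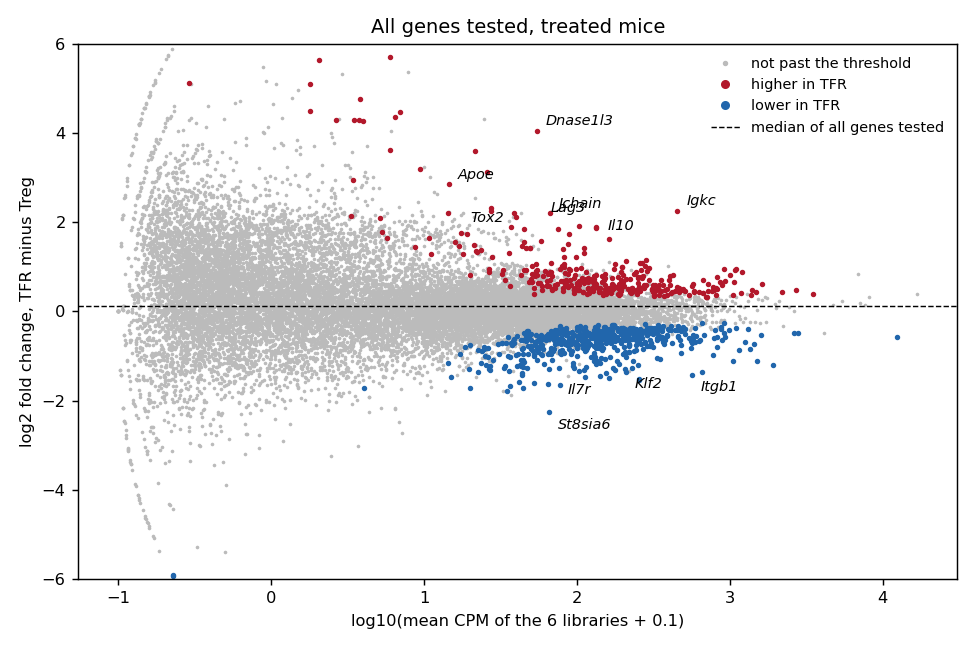
Log2 fold change, TFR minus Treg cells of treated mice (y axis), against log10 of the mean CPM of the 6 libraries plus 0.1 (x axis) for each gene tested; red and blue points are the 334 genes higher and the 532 lower at an adjusted p under 0.05. The dashed line marks the median of all genes, 0.12; 12 genes lie beyond the y axis, and most called genes have a mean above 10 CPM.

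The genes of the sorted surface proteins followed the gates, which is a check of the sort and no finding. Cxcr5 stood at 126, 136 and 146 CPM in TFR and 41, 46.1 and 35.6 CPM in Treg libraries (log2FC 1.73 ± 0.23, adjusted p = 5.8e-05). Pdcd1, which encodes PD1, was at 126, 151 and 149 against 74.1, 76.9 and 65 CPM (log2FC 0.98 ± 0.16, adjusted p = 0.00044). Tnfrsf18, which encodes GITR, was at 211, 239 and 257 against 140.2, 146 and 126 CPM (log2FC 0.78 ± 0.14, adjusted p = 0.001). Neither Cxcr5 nor Pdcd1 was absent from Treg libraries.

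Foxp3 (ENSMUSG00000039521.12, chromosome X, 7573644 to 7595245), the lineage factor, was at 499, 587 and 598 CPM in TFR and 581, 564 and 503 CPM in Treg libraries, so the values of the groups overlapped (log2FC 0.03 ± 0.18, adjusted p = 0.99). In treated TFH and Tconv libraries Foxp3 was at 59.8, 48.8 and 43.8 CPM and 12.8, 12.1 and 10.7 CPM, below every TFR and Treg value. Ikzf2, which encodes the Treg factor Helios, was at 904, 1039 and 1006 CPM in TFR and 1198, 1171 and 1185 CPM in Treg libraries (log2FC -0.27 ± 0.11, adjusted p = 0.28). Il2ra, the high-affinity chain of the IL-2 receptor, was at 176, 191 and 197 against 218, 211 and 218 CPM (log2FC -0.20 ± 0.17, adjusted p = 0.88). Every TFR value of both genes lay below every Treg value, and in the fit of the 6 libraries alone their adjusted p was 0.0045 and 0.0038. The costimulatory receptor Icos, at 507, 595 and 557 against 577, 563 and 595 CPM, overlapped between groups.

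Of the 26 members of the Treg program list, 6 were higher and 2 lower, with a median log2FC of 0.07. Leaving out Tnfrsf18, which served in the gate, 5 of 25 were higher and the median was 0.04. Tnfrsf9, the costimulatory receptor 4-1BB, rose from 304, 309.7 and 299.8 CPM in Treg to 495, 576 and 551 CPM in TFR libraries (log2FC 0.83 ± 0.12, adjusted p = 0.00016). Ikzf3, which encodes the Ikaros family factor Aiolos, rose from 155, 154 and 139 to 205, 237 and 246 CPM (log2FC 0.62 ± 0.11, adjusted p = 0.0015). Ctla4, the inhibitory receptor of Treg cells, was at 756, 814 and 802 against 637, 610.2 and 642 CPM (log2FC 0.33 ± 0.09, adjusted p = 0.027). The adjusted p was 0.056 without the kidney libraries and 0.051 to 0.14 with 1 library left out, above 0.05 in every case. Against these, Nt5e, which encodes CD73, the enzyme that makes adenosine on the cell surface, fell from 174, 184 and 172 to 82.5, 94.5 and 85.3 CPM (log2FC -1.02 ± 0.11, adjusted p = 5.3e-06). The partner enzyme of CD73 in that pathway, Entpd1 (CD39), did not pass the threshold, with 82.4, 85.7 and 87.6 CPM in TFR and 43.5, 46.6 and 47.5 CPM in Treg libraries (adjusted p = 0.88, and 2.9e-05 in the fit of the 6 libraries). Nrp1, a surface marker of Treg cells, stood at 151, 109 and 114 against 312, 312 and 315 CPM (adjusted p = 0.24, and 7.8e-05 without the kidney libraries), with the library that holds kidney transcripts highest among the TFR values. Without the kidney libraries, 4 members of the list were higher and 2 lower.

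**Figure D3:**
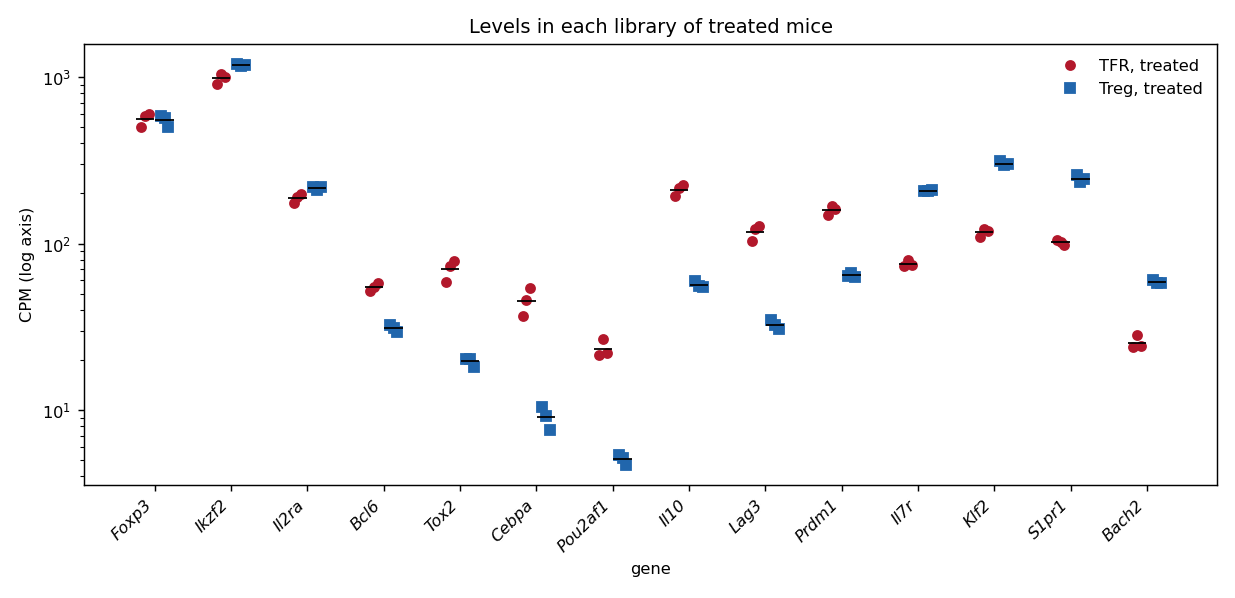
CPM (log axis) of 14 genes in each library of treated mice; red circles are TFR and blue squares Treg libraries in the order of their numbers, and black bars are group means. Foxp3 overlaps between the groups, whereas Bcl6, Tox2, Cebpa, Pou2af1, Il10, Lag3 and Prdm1 are higher and Il7r, Klf2, S1pr1 and Bach2 lower in every TFR library.

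Follicular helper program genes moved in both directions. Of 27 members, 8 rose and 4 fell, with a median log2FC of 0.62. Without Cxcr5 and Pdcd1, 6 of 25 rose and the median was 0.47. In 17 members every TFR value lay above every Treg value, and in 7 below, beside 24.7% and 21.6% of all genes tested. Without the kidney libraries 8 were higher and 3 lower. Bcl6 (ENSMUSG00000022508.5, chromosome 16, 23965052 to 23988852), the transcription factor that follicular cells depend on, rose from 32.4, 31.1 and 29.3 CPM in Treg to 52.1, 54.6 and 57.5 CPM in TFR libraries (log2FC 0.82 ± 0.12, adjusted p = 0.00015). Tox2 (ENSMUSG00000074607.11, chromosome 2, 163203125 to 163324170), a nuclear factor of TFH cells, rose from 20.4, 20.4 and 18.1 to 58.9, 73.4 and 78.9 CPM (log2FC 1.84 ± 0.19, adjusted p = 3.2e-06). Cebpa, a transcription factor better known from myeloid cells, rose from 10.5, 9.15 and 7.6 to 36.5, 45.9 and 53.9 CPM (log2FC 2.32 ± 0.34, adjusted p = 0.00014). Bcl6, Tox2 and Cebpa were each lowest in TFR 1, the TFR library with kidney transcripts, yet even that value was above every Treg value. Pou2af1, a coactivator of octamer-binding factors that is abundant in B cells, rose from 5.38, 5.15 and 4.68 to 21.5, 26.6 and 22 CPM (log2FC 2.20 ± 0.23, adjusted p = 3.9e-06). Il21, the cytokine that helps B cells, was at 24, 26.4 and 25.3 against 10.1, 10.03 and 11.1 CPM (log2FC 1.28 ± 0.32, adjusted p = 0.022). Its adjusted p was 0.2 without the kidney libraries and 0.055 to 0.11 with 1 library left out, above 0.05 in every case. Ascl2, a factor that can start the follicular program, was low, at 3.71, 5.5 and 4.1 against 0.343, 0.231 and 0.241 CPM; the groups did not overlap, but the adjusted p was 0.28, and 3.7e-05 in the fit of the 6 libraries.

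The 4 members that fell were Slamf6, Il6ra, Tcf7 and Cd40lg. Slamf6, an adhesion receptor between T and B cells, fell from 354, 353 and 344 to 183, 204 and 194 CPM (log2FC -0.85 ± 0.15, adjusted p = 0.001). Il6ra, the IL-6 receptor chain, fell from 78.6, 82.3 and 69.7 to 38.1, 44.2 and 46.9 CPM (log2FC -0.84 ± 0.12, adjusted p = 8.4e-05). Tcf7, a factor of naive, memory and follicular helper cells, fell from 711, 681 and 659 to 399, 447 and 457 CPM (log2FC -0.65 ± 0.10, adjusted p = 0.00017). Cd40lg, the contact signal that T cells give to B cells, fell from 33.1, 33.9 and 33 to 16.1, 17.6 and 16.4 CPM (log2FC -0.996 ± 0.20, adjusted p = 0.0034, and 0.09 without the kidney libraries).

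**Figure D4:**
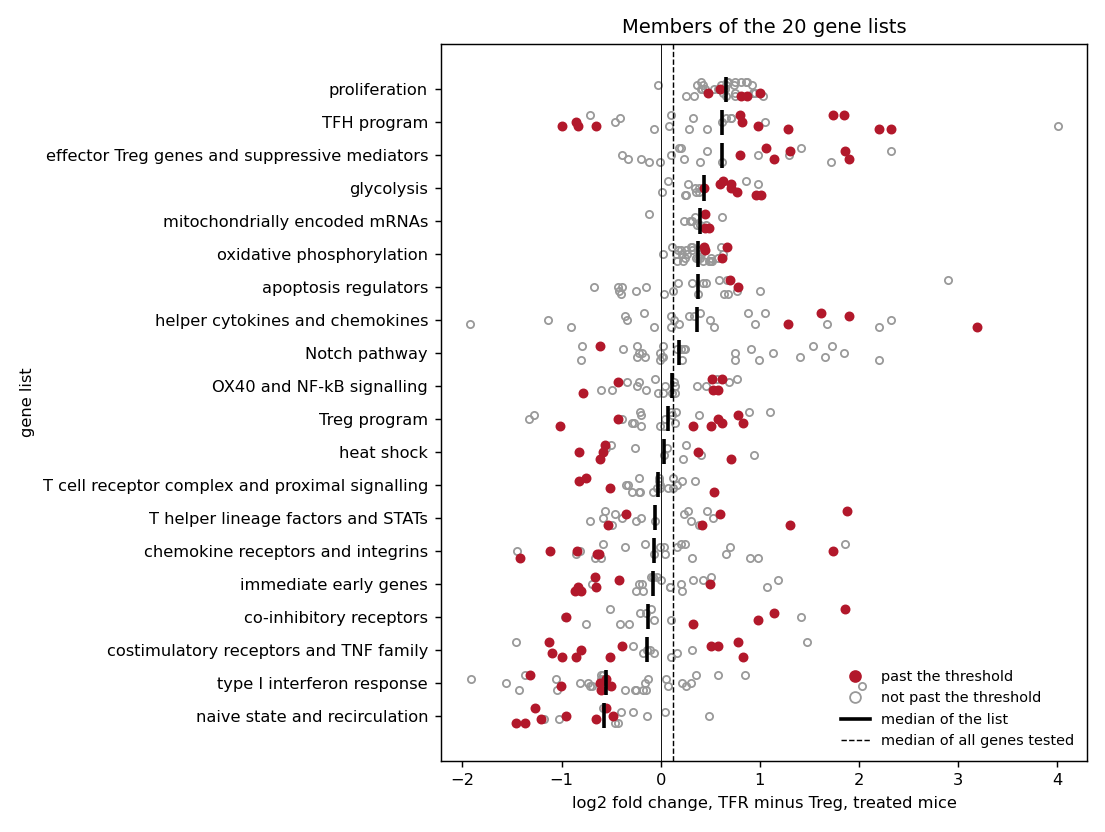
Log2 fold change, TFR minus Treg cells of treated mice (x axis), of each tested member of 20 gene lists (rows, ordered by their median); filled red points passed an adjusted p of 0.05, open grey points did not, black bars are list medians and the dashed line is the median of all genes. The list of naive state and recirculation genes has the lowest median, -0.57, and proliferation the highest, 0.66.

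Suppressive mediators and factors of effector Treg cells rose where they passed. Of 23 members of this list, 6 rose and none fell, with a median log2FC of 0.62. The values of 17 lay wholly above and of 3 wholly below those of Treg libraries, beside 24.7% and 21.6% of all genes tested. Without the kidney libraries 7 were higher. Il10 (ENSMUSG00000016529.5, chromosome 1, 131019845 to 131024974), the inhibitory cytokine, rose from 59.2, 55.6 and 54.6 CPM to 193, 216 and 224 CPM (log2FC 1.90 ± 0.23, adjusted p = 2e-05). Each TFR value was more than 3 times each Treg value. Lag3, an inhibitory receptor that binds MHC class II, rose from 34.5, 32.3 and 30.8 to 104, 122 and 127 CPM (log2FC 1.86 ± 0.21, adjusted p = 5.8e-06). Tigit, an inhibitory receptor shared by Treg and TFH cells, rose from 134, 128 and 127 to 282, 290.2 and 286 CPM (log2FC 1.14 ± 0.13, adjusted p = 8.6e-06). Prdm1, which encodes Blimp-1, a factor of effector Treg cells that opposes Bcl6 in helper cells, rose together with Bcl6, from 63.7, 66.6 and 62.6 to 149, 167 and 161 CPM (log2FC 1.30 ± 0.24, adjusted p = 0.0014). None of these 4 genes had overlapping groups. Nfil3, a factor that several T cell subsets induce on activation, rose from 119, 121 and 105 to 215, 252 and 253 CPM (log2FC 1.06 ± 0.12, adjusted p = 5.6e-06). Batf, an AP-1 family factor needed for follicular and effector T cells, rose from 95.9, 99.6 and 86.2 to 139.6, 168 and 183 CPM (log2FC 0.80 ± 0.14, adjusted p = 0.00096). In contrast Il1rl1, the IL-33 receptor of tissue Treg cells, overlapped between groups at 64.3, 75.6 and 65.6 against 74.8, 74.2 and 74.1 CPM (adjusted p = 0.99). Gata3, a factor of Th2 and tissue Treg cells, was at 143, 154 and 169 against 215, 201 and 197 CPM (adjusted p = 0.13). Gzmb, a granule protease, stood at 67.7, 80.5 and 85.6 against 25.8, 25.3 and 20.3 CPM. Havcr2, the inhibitory receptor TIM-3, was at 74.4, 83 and 83.6 against 29.7, 32.8 and 28.1 CPM. Neither passed (adjusted p = 0.22 and 0.081), though their groups did not overlap and their adjusted p in the fit of the 6 libraries was 2.6e-05 and 8.4e-06.

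Among 16 co-inhibitory receptors 4 rose (Pdcd1, Lag3, Tigit and Ctla4) and Cd96 fell, from 261, 274 and 258 to 127, 146 and 136 CPM (log2FC -0.96 ± 0.20, adjusted p = 0.0048, and 0.089 without the kidney libraries). The median of these receptors was -0.13, below that of all genes. Leaving out Pdcd1, which served in the gate, 3 of 15 rose and the median was -0.15. Of 26 cytokine and chemokine genes tested out of 28 on the list, 4 rose and none fell (Il10, Il21, Ccl5 and Spp1). Ccl5, a chemokine of effector cells, rose from 82.2, 82.2 and 75.9 to 235, 249 and 253 CPM (log2FC 1.61 ± 0.20, adjusted p = 1.9e-05). Spp1, which encodes osteopontin, rose from 1.74, 1.92 and 1.88 to 18.2, 15.1 and 17.3 CPM (log2FC 3.19 ± 0.74, adjusted p = 0.012). Its adjusted p was 0.095 without the kidney libraries and 0.031 to 0.074 with 1 library left out, above 0.05 without Treg 1, Treg 2 and Treg 3. Among 21 T helper lineage factors and STATs, Eomes, Prdm1, Stat3 and Hif1a rose, whereas Runx1 (log2FC -0.53 ± 0.12, adjusted p = 0.012, 0.034 to 0.081 with 1 library left out, above 0.05 without TFR 1 and Treg 1) and Stat5b fell; without the kidney libraries the same list had 4 higher and 0 lower. Eomes, a T-box factor of cytotoxic and of IL-10-producing CD4 cells, rose from 57.5, 59 and 54.3 to 182, 217 and 227 CPM (log2FC 1.88 ± 0.27, adjusted p = 0.00014). Hif1a, the oxygen-regulated factor, rose from 713, 683 and 729 to 985, 1117 and 1103 CPM (log2FC 0.59 ± 0.09, adjusted p = 0.00024). Stat3, which carries IL-6, IL-10 and IL-21 signals, rose from 582, 595 and 536 to 680.1, 805 and 801 CPM (log2FC 0.42 ± 0.09, adjusted p = 0.0052).

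The remaining genes with the largest rises were of mixed kinds. Dnase1l3 (ENSMUSG00000025279.7, chromosome 14, 7964533 to 7994573), a secreted nuclease that digests DNA in extracellular particles, rose the most of the genes called with and without the kidney libraries that met the rule, from 5.93, 7.01 and 5.53 CPM to 93.1, 105 and 109.7 CPM (log2FC 4.06 ± 0.52, adjusted p = 3.5e-05). Apoe, a lipid carrier of macrophages and other cells, rose from 2.14, 2.56 and 5.89 to 29.1, 21.5 and 25.7 CPM (log2FC 2.85 ± 0.58, adjusted p = 0.004). Both genes are also made by phagocytes, so markers of those cells are given here. Of the 17 myeloid and dendritic cell markers 11 were tested and none passed. Their sum was 137, 87 and 91.2 CPM in TFR and 62.5, 63.8 and 75.9 CPM in Treg libraries. Cst3, which most cells make, contributed most of that sum. Of the 11, 5 had every TFR value above every Treg value and 2 below, beside 24.7% and 21.6% of all genes tested. Their median log2FC was 1.002, and 0.41 without the kidney libraries. Lyz2 was at 0.767, 0.878 and 1.05 against 0.0382, 0.107 and 0.29 CPM, Cd68 at 14.4, 15.6 and 15.9 against 7.73, 8.54 and 6.59 CPM and Cd14 at 0.987, 1.39 and 1.68 against 0.324, 0.337 and 0.217 CPM. All 3 lay higher in every TFR library. So did the macrophage gene Adgre1, at 0.307, 0.305 and 0.055 against 0 CPM in each Treg library, while Itgam and Xcr1 lay lower in every TFR library. The macrophage genes C1qa, C1qb and C1qc were at 0 in TFR 2 and TFR 3, and also in Treg 1 and Treg 2. That list's part in the Dnase1l3 and Apoe values was not tested. Asb2, a ubiquitin ligase component, rose from 14.9, 14.1 and 11.9 to 57.9, 62.6 and 68.9 CPM (log2FC 2.21 ± 0.33, adjusted p = 0.00022). Nav2, a cytoskeletal regulator, rose from 42.3, 45.2 and 42.3 to 154, 160.5 and 173 CPM (log2FC 1.91 ± 0.43, adjusted p = 0.0098). Rgs9, a brake on G protein signals, rose from 15.6, 16.4 and 14.9 to 53.6, 55.8 and 64.6 CPM (log2FC 1.89 ± 0.20, adjusted p = 3.2e-06). For Nav2 the adjusted p was 0.023 to 0.054 with 1 library left out, above 0.05 without Treg 1 and Treg 3.

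The antibody genes Jchain, Igkc and Ighm rose in TFR libraries, while Ighd, the IgD constant gene, was at 5.7, 6.53 and 6.36 CPM in TFR and 7.35, 7.37 and 6.83 CPM in Treg libraries. Jchain, which links secreted antibodies, was at 104, 114 and 109.6 CPM in TFR and 24.3, 22.4 and 24.1 CPM in Treg libraries (log2FC 2.21 ± 0.25, adjusted p = 6e-06). Igkc, the kappa light chain constant gene, was at 706, 766 and 773 against 163, 163 and 142 CPM (log2FC 2.26 ± 0.15, adjusted p = 3.7e-08). Ighm, the IgM constant gene, was at 1303, 1504 and 1518 against 753, 777 and 693 CPM (log2FC 0.96 ± 0.11, adjusted p = 1.1e-05). In each of these genes the 3 TFR values were above the 3 Treg values. Of 14 plasma cell markers 13 were tested and Jchain, Igkc and Prdm1 rose; the list's sum was 1414, 1574 and 1555 CPM in TFR and 594, 593 and 550.0 CPM in Treg libraries. Sdc1 and Mzb1, further plasma cell genes, reached at most 3.55 and 2.62 CPM in TFR and 0.897 and 0.343 CPM in Treg libraries. Of 21 B cell markers 20 were tested and Ighm, Cd74 (log2FC 0.64 ± 0.16, adjusted p = 0.018, with 0.15 without the kidney libraries and 0.035 to 0.11 with 1 library left out, above 0.05 without TFR 2, TFR 3, Treg 1 and Treg 3) and Pax5 rose; the list's sum was 1694, 1920.0 and 1948 CPM against 1035, 1072 and 955 CPM. Without the kidney libraries 1 B cell marker rose. Of the 20, 9 had every TFR value above every Treg value and 2 below, beside 24.7% and 21.6% of all genes tested. The defining marker Ms4a1 was at 0.811, 0.554 and 0.468 against 0.0382, 0.16 and 0.241 CPM and Cd79a at 1.84, 1.49 and 1.54 against 0.134, 0.764 and 0.459 CPM, both low but higher in every TFR library. Pax5, the B cell factor, was at 3.33, 3.3 and 3.28 against 0.134, 0.071 and 0.0724 CPM (log2FC 5.09 ± 1.21, adjusted p = 0.014, with 0.1 without the kidney libraries and 0.032 to 0.091 with 1 library left out, above 0.05 without Treg 1, Treg 2 and Treg 3). Summed CD8 and NK cell markers were 288, 337 and 346 CPM against 111, 114 and 108 CPM, of which Eomes made up the greater share. Nkg7 was at 55.8, 59.3 and 57.8 against 13.8, 14.7 and 14.1 CPM and Prf1 at 27.5, 33.1 and 34.6 against 13.3, 12.8 and 13.2 CPM, both higher in every TFR library. Klrk1 was lower in every TFR library, at 0.438, 0.554 and 0.358 against 4.16, 4.39 and 4.3 CPM, as was Klre1 near 0. Of 10 tested members 3 had TFR values wholly above and 2 wholly below, beside 24.7% and 21.6% of all genes tested, and 1 passed. Cd8a was at 0 in every TFR library, and Ncr1 at most 0.0658 CPM in any of the 6. What part RNA of these other cells has in the higher Jchain, Igkc, Ighm, Pou2af1, Prdm1 and Eomes values was not tested.

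Genes of the naive state and of recirculation fell where they passed. Of 18 members, 8 fell and none rose, with a median log2FC of -0.57 against 0.12 for all genes. Of these members 15 had TFR values wholly below the Treg values and none wholly above, beside 21.6% and 24.7% of all genes tested. The same number as with all libraries, 8, fell without the kidney libraries. Il7r (ENSMUSG00000003882.4, chromosome 15, 9505788 to 9530176), the IL-7 receptor chain of naive and memory cells, fell from 208, 206 and 209 CPM in Treg to 72.9, 80.1 and 74.2 CPM in TFR libraries (log2FC -1.46 ± 0.16, adjusted p = 6.7e-06). Klf2 (ENSMUSG00000055148.7, chromosome 8, 72319033 to 72321656), the factor that keeps T cells in circulation, fell from 311, 295 and 298 to 109.7, 122 and 119.5 CPM (log2FC -1.36 ± 0.13, adjusted p = 9e-07). S1pr1, its target and the receptor for exit from lymphoid tissue, fell from 257, 235 and 243 to 105, 102 and 97.5 CPM (log2FC -1.27 ± 0.12, adjusted p = 1.1e-06). In all 3 genes the groups lay far apart relative to the spread within them. Bach2, a repressor that holds T cells in a resting state, fell from 60.5, 57.6 and 58 to 23.8, 28.1 and 24.3 CPM (log2FC -1.21 ± 0.15, adjusted p = 2.1e-05). Klf3 fell from 124, 118 and 122 to 59, 65.3 and 63.1 CPM (log2FC -0.96 ± 0.12, adjusted p = 2.4e-05). Foxp1, a quiescence factor, fell from 212, 213 and 198 to 129, 142 and 153 CPM (log2FC -0.56 ± 0.10, adjusted p = 0.00096). The chromatin organiser Satb1 fell from 189, 181 and 188 to 126, 139.9 and 135 CPM (log2FC -0.48 ± 0.09, adjusted p = 0.0029). The lymph node homing receptor gene Ccr7 was at 137, 155 and 162 against 193, 189 and 167 CPM and did not pass (log2FC -0.28 ± 0.10, adjusted p = 0.19). Every TFR value was below every Treg value, and the adjusted p in the fit of the 6 libraries was 0.0043.

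RNA of both chains of the integrin alpha 4 beta 1, which binds fibronectin and VCAM-1, was lower in TFR libraries. The protein was not measured. Itgb1 fell from 816, 792 and 850.2 to 349, 292 and 276 CPM (log2FC -1.42 ± 0.32, adjusted p = 0.0094). Itga4 fell from 1452, 1392 and 1442 to 619, 678 and 685 CPM (log2FC -1.11 ± 0.11, adjusted p = 1.4e-06). Within TFR libraries Itgb1 was highest in the one with kidney transcripts, and its adjusted p was 4.7e-06 without the kidney libraries. It was 0.024 to 0.06 with 1 library left out, above 0.05 without TFR 2 and TFR 3. Of 27 chemokine receptors and integrins, Cxcr5 alone rose and 5 fell, and without the kidney libraries 2 fell. Leaving out Cxcr5, which served in the gate, 0 of 26 rose and 5 fell. Cxcr3, a receptor of Th1-type cells, fell from 133, 137 and 125 to 76.1, 86.2 and 89.97 CPM (log2FC -0.65 ± 0.12, adjusted p = 0.0018, and 0.082 without the kidney libraries).

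Several other genes fell by more than 2-fold. St8sia6, a sialyltransferase, fell the furthest of those that met the same rule, from 110.3, 105 and 109.9 to 21, 24 and 22.7 CPM (log2FC -2.26 ± 0.28, adjusted p = 2.2e-05). Scml4, a Polycomb-like protein, fell from 57, 53 and 51.1 to 14.2, 15 and 17.4 CPM (log2FC -1.79 ± 0.17, adjusted p = 1.4e-06). Lpar6, a lysophosphatidic acid receptor, fell from 102, 90.9 and 97.5 to 34.1, 29 and 31 CPM (log2FC -1.63 ± 0.31, adjusted p = 0.0027). Il18r1, the IL-18 receptor chain, fell from 394, 381 and 369 to 122, 137 and 134 CPM (log2FC -1.54 ± 0.23, adjusted p = 0.00018). Ms4a4b, a membrane protein of T cells, fell from 239, 233 and 248 to 82.8, 89.2 and 82.4 CPM (log2FC -1.50 ± 0.16, adjusted p = 5.1e-06). Slfn1 and Slfn8, 2 Schlafen family genes linked to quiescence and interferon, had log2FC of -1.72 and -1.33 (adjusted p = 0.0004 and 4.1e-05); reads of such close relatives may be assigned to the wrong one. Arhgef18, a guanine nucleotide exchange factor, and Adamts6, a secreted metalloprotease, had log2FC of -1.46 and -1.39 (adjusted p = 1.4e-05 and 1.1e-07).

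Of the receptors for the injected ligands, OX40 rose, and neither Notch1 nor Notch2 passed. Tnfrsf4, which encodes OX40, rose from 286, 287 and 249 to 377, 417 and 437 CPM (log2FC 0.58 ± 0.13, adjusted p = 0.011). The adjusted p was 0.13 without the kidney libraries and 0.018 to 0.085 with 1 library left out, above 0.05 without TFR 3 and Treg 3. Of 25 genes of OX40 and NF-kB signalling 4 rose and 2 fell (median 0.11), and without the kidney libraries 3 rose and none fell. Nfkbia, the NF-kB inhibitor that NF-kB itself induces, rose from 1308, 1324 and 1194 to 1768, 2038 and 2065 CPM (log2FC 0.62 ± 0.08, adjusted p = 5.9e-05). Rel, a subunit needed by Treg cells, rose from 387, 372 and 386 to 513, 583 and 553 CPM (log2FC 0.53 ± 0.13, adjusted p = 0.015, 0.027 to 0.085 with 1 library left out, above 0.05 without TFR 2, TFR 3, Treg 1, Treg 2 and Treg 3). Nfkb2, the subunit of the noncanonical pathway, rose from 235, 248 and 198 to 286, 341 and 349 CPM (log2FC 0.52 ± 0.12, adjusted p = 0.0094, 0.0076 to 0.088 with 1 library left out, above 0.05 without TFR 2, TFR 3 and Treg 3). The groups of all 4 genes did not overlap. Notch1 was at 360.4, 382 and 383 against 349.5, 345 and 308 CPM (log2FC 0.17 ± 0.14, adjusted p = 0.86). Notch2, another receptor for JAG1, was at 127, 142 and 137 against 184, 189 and 155 CPM (log2FC -0.38 ± 0.13, adjusted p = 0.11), with every TFR value below every Treg value. Of 30 Notch pathway genes 1 fell and none rose, a share under the 4.61% of all genes tested that passed in either direction. That gene was Lfng, a glycosyltransferase that tunes Notch ligand binding, at 57.5, 60.3 and 60.2 against 91.6, 96.7 and 83.9 CPM (log2FC -0.61 ± 0.17, adjusted p = 0.041, with 0.28 without the kidney libraries and 0.076 to 0.17 with 1 library left out, above 0.05 in every case). Dtx1, a Notch target, overlapped between groups at 95.2, 121 and 133 against 145, 142 and 119 CPM, as did Hes1 and Hes5. The targets Hey1, Nrarp and Heyl did not pass, yet lay higher in every TFR library. Hey1 was at 18.1, 17.6 and 17 against 5.46, 6.27 and 4.92 CPM. Of the 30 genes, 8 had every TFR value above every Treg value and 7 below, beside 24.7% and 21.6% of all genes tested. In the fit of the 6 libraries 6 were higher and 7 lower, beside 19.4% and 21.8% of all genes.

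Among 21 costimulatory receptors and TNF family genes, 4 rose and 7 fell (median -0.14); without Tnfrsf18 of the gate 3 of 20 rose, and without the kidney libraries 2 rose and 4 fell. Cd84, a SLAM family adhesion receptor, fell from 178, 174 and 179.9 to 77, 86.3 and 80.9 CPM (log2FC -1.12 ± 0.16, adjusted p = 0.00015). Tnfsf8, the ligand of CD30, fell from 225, 226 and 219.5 to 119, 132 and 132 CPM (log2FC -0.81 ± 0.11, adjusted p = 6.6e-05). With Slamf6 above, 2 SLAM family receptors thus fell by log2FC of -1.12 and -0.85. Of 22 genes of the T cell receptor complex and its proximal signalling, 1 rose and 3 fell, and without the kidney libraries 1 rose and 1 fell. The kinase gene Zap70 rose from 194, 206 and 164 to 239, 289 and 289 CPM (log2FC 0.54 ± 0.11, adjusted p = 0.0051, 0.0041 to 0.055 with 1 library left out, above 0.05 without Treg 3). In contrast Prkcq, the kinase that links the receptor to NF-kB, fell from 281, 292 and 255 to 151, 166 and 173 CPM (log2FC -0.75 ± 0.10, adjusted p = 4.7e-05).

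Immediate early genes, which respond within minutes to receptor signals and to cell handling, mostly fell where they passed. Of 25, 6 fell and 1 rose (median -0.07), and without the kidney libraries 4 fell and 1 rose. The AP-1 subunit Fos fell from 1544, 1526 and 1399.7 to 741, 844 and 869 CPM (log2FC -0.86 ± 0.15, adjusted p = 0.001). Its partner Jun fell from 1837, 1829.9 and 1569 to 859, 1012 and 1059.9 CPM (log2FC -0.84 ± 0.12, adjusted p = 0.00017). Klf6 fell from 1091, 1078 and 1091 to 649, 715 and 710.2 CPM (log2FC -0.65 ± 0.10, adjusted p = 0.00024). In the same direction Btg2, an antiproliferative gene, fell from 418, 399 and 389 to 211, 239 and 238 CPM (log2FC -0.81 ± 0.13, adjusted p = 0.0006). Fosl2, another AP-1 subunit, was the one that rose, from 164, 165 and 157 to 197, 241 and 248 CPM (log2FC 0.50 ± 0.11, adjusted p = 0.012). Its adjusted p was 0.0066 to 0.09 with 1 library left out, above 0.05 without TFR 2, TFR 3, Treg 1 and Treg 3. Cytosolic heat shock genes, which also respond to handling, were lower where they passed (4 of 15 heat shock genes, and 1 without the kidney libraries). Hspa1b was at 635, 775 and 843 against 1170.4, 1176 and 1017 CPM (log2FC -0.58 ± 0.12, adjusted p = 0.0038), and its reads may be shared with its near-identical neighbour Hspa1a. The chaperones of mitochondria and of the endoplasmic reticulum, Hspd1 and Hspa5, rose, with log2FC of 0.71 and 0.37 (adjusted p = 0.00076 and 0.0042).

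Of 37 genes of the type I interferon response, a pathway raised in lupus, 6 fell and none rose, with a median of -0.55. Of these 26 had TFR values wholly below the Treg values and 7 wholly above, beside 21.6% and 24.7% of all genes tested. Without the kidney libraries 2 fell. Ifi203, a nucleic acid sensor, fell from 249.9, 249 and 256 to 95.9, 102 and 105 CPM (log2FC -1.31 ± 0.14, adjusted p = 5.1e-06). Parp14, an ADP-ribosyltransferase, fell from 263, 265 and 243 to 164, 180.1 and 165 CPM (log2FC -0.60 ± 0.11, adjusted p = 0.0011). Ifi206, a relative of Ifi203 with which it may share reads, fell from 45.7, 50.3 and 45.6 to 22.5, 26.8 and 21.1 CPM (log2FC -1.01 ± 0.22, adjusted p = 0.0089, with 0.2 without the kidney libraries and 0.025 to 0.072 with 1 library left out, above 0.05 without TFR 1, TFR 3 and Treg 2). Of 23 apoptosis regulators tested 2 rose and none fell.

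Genes of DNA replication and of energy metabolism rose where they passed. Of 35 proliferation genes 5 rose and none fell, with a median of 0.66. Of these 34 had TFR values wholly above the Treg values, beside 24.7% of all genes tested. Without the kidney libraries 3 rose. Mcm5 and Mcm3, subunits of the replicative helicase, both rose. Mcm5 went from 138, 139.6 and 117 to 229, 283 and 280.3 CPM (log2FC 1.003 ± 0.16, adjusted p = 0.00042). Mcm3 went from 172, 183 and 158 to 286, 324 and 329 CPM (log2FC 0.87 ± 0.12, adjusted p = 0.00011). Mcm2, a further subunit, had a log2FC of 0.81 (adjusted p = 0.0093, 0.015 to 0.068 with 1 library left out, above 0.05 without TFR 2, TFR 3 and Treg 3). Every TFR value of these helicase genes was above every Treg value. Top2a, the topoisomerase of dividing cells, rose from 326, 327 and 319 to 451, 531 and 489.8 CPM (log2FC 0.60 ± 0.09, adjusted p = 0.00024). Mki67, the marker of cycling cells, was at 1032, 1152 and 1163 against 907, 915 and 829 CPM, without overlap, but did not pass (log2FC 0.34 ± 0.31, adjusted p = 0.91, and 0.0055 in the fit of the 6 libraries). Of 33 nuclear genes of oxidative phosphorylation 4 rose and none fell (median 0.38). Wholly above the Treg values lay 29, beside the same 24.7% of all genes tested. Atp5b, a subunit of the ATP synthase, rose from 458, 461 and 434 to 663, 709 and 708 CPM (log2FC 0.62 ± 0.06, adjusted p = 2.9e-06). Of 13 mitochondrially encoded mRNAs 3 rose, such as mt-Nd5, from 2220.2, 2141 and 2401 to 2949, 3224 and 3306 CPM (log2FC 0.49 ± 0.10, adjusted p = 0.006), and without the kidney libraries 7 rose. Mitochondrially encoded genes took 2.48, 2.51 and 2.57% of the counts in TFR and 1.95, 1.85 and 2.20% in Treg libraries.

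Of 19 glycolysis genes 8 rose and none fell, with a median of 0.43. Of these 15 had TFR values wholly above the Treg values, beside 24.7% of all genes tested. Without the kidney libraries 4 rose (Gapdh, Ldha, Aldoa and Pkm). Pkm, pyruvate kinase, rose from 646, 679 and 550.1 to 1062, 1276 and 1306 CPM (log2FC 0.96 ± 0.11, adjusted p = 5.8e-06). Gapdh rose from 629, 638 and 568 to 964, 1081 and 1093 CPM (log2FC 0.77 ± 0.10, adjusted p = 2.9e-05). Ldha, lactate dehydrogenase, rose from 524, 539 and 454 to 765, 843 and 869.6 CPM (log2FC 0.71 ± 0.11, adjusted p = 0.00045). Aldoa, the aldolase, rose from 576, 592 and 524 to 815, 888 and 906 CPM (log2FC 0.62 ± 0.09, adjusted p = 7e-05). The enzymes Tpi1, Pgk1 and Pgam1 had log2FC of 1.01, 0.60 and 0.71, and their adjusted p rose from 0.014, 0.026 and 0.02 to 0.17, 0.28 and 0.39 without the kidney libraries. When 1 of the 6 libraries was left out, that of Tpi1 was 0.03 to 0.091 with 1 library left out, above 0.05 without TFR 2, TFR 3, Treg 1 and Treg 3, that of Pgk1 0.044 to 0.16 with 1 library left out, above 0.05 without TFR 2, TFR 3, Treg 1, Treg 2 and Treg 3 and that of Pgam1 0.055 to 0.12 with 1 library left out, above 0.05 in every case.

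The 250 bases before the start of the glycolysis genes were searched for ACGTG, the core of the element that hypoxia-inducible factors bind, on both strands. The promoters were those of RefSeq on GRCm38.p6, where 18 of the 19 genes matched. The motif was in 12 of 29 promoters of these genes (41.4%) and in 16.6% of all 32851 promoters of the same length. Shown, as the letters behind these counts, are the promoters of Ldha, Pgk1 and Pgam1. These promoters were picked because they hold the motif and their genes passed the threshold. They are read 5′ to 3′ on the plus strand, on which all 3 genes lie, with matches on either strand in capitals, at chr7:46845554-46845803 for Ldha, chrX:106186850-106187099 for Pgk1 and chr19:41911621-41911870 for Pgam1.
Ldha: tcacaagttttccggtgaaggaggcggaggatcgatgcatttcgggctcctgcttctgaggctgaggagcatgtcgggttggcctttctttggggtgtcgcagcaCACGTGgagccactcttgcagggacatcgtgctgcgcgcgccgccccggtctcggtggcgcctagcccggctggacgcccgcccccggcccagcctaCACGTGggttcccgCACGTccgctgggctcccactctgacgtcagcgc
Pgk1: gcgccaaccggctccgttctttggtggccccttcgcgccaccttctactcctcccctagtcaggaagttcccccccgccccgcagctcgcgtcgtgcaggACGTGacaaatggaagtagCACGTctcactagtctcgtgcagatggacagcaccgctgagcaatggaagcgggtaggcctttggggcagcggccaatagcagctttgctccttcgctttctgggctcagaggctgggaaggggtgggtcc
Pgam1: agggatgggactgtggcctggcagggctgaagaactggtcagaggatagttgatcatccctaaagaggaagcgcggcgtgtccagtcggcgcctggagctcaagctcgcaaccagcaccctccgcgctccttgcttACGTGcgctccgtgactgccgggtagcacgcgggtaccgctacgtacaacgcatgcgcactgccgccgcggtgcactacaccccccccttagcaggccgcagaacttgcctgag
Counted on each strand, so that CACGTG counts once per strand, Ldha held 5 matches, Pgk1 2 and Pgam1 1. The window of the first listed start of Pkm, Gapdh and Aldoa, which also rose without the kidney libraries, held none. That of Tpi1, which passed with all libraries, held none either. The windows of Hk2 and Pfkm, whose TFR and Treg values overlapped, held 2 matches each. Those of Slc16a1, Slc16a3 and Slc2a1 held matches too. Whether the motif goes with the rises was not tested. For the genes of the naive state and recirculation, CACCC, the core bound by KLF factors, was in 16 of 25 promoters (64%) of the 14 matched genes and in 52% of all promoters. A match describes letters only and marks no bound site.

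The difference between TFR and Treg cells was then set beside that in control mice. Depth, the share of mitochondrial counts and treatment cannot be told apart between those groups. Mitochondrially encoded genes took 9.65 to 11.3% of the counts in the control TFR and Treg libraries. In the shallow control TFR libraries, 4062 of the 18789 genes had 0 reads in all 3, against 56 in treated TFR libraries. There 1143 had 0 reads in one and at least 5 CPM in another, against 177. In control mice 429 genes (2.28%) were higher and 1402 (7.46%) lower in TFR than in Treg cells, 9.75% in all. Of the 334 genes that rose in treated mice 64 also rose in control mice, which is 19.2% of the first and 14.9% of the second. Of the 532 that fell 101 also fell, 19% and 7.2%. There were 72 genes past the threshold in both with opposite directions. A test of the difference itself, treated minus control, passed for 1408 genes (7.49% of those tested), 984 (5.24%) with a larger and 424 (2.26%) with a smaller value in treated mice. Without the kidney libraries it passed for 430. Leaving out 1 of the 12 libraries at a time gave 797 to 1668, with 875, 814, 806, 857 and 797 without treated TFR 2 and 3 and treated Treg 1, 2 and 3. Of the 866 genes called in treated mice, 423 were among the 1408.

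In the TFH program list the test of the difference passed for 2 members with a larger and 4 with a smaller value in treated mice, and in the naive and recirculation list for 4 with a larger value. Among the former was Pou2af1 (1.78 ± 0.32, adjusted p = 0.0018). It did not pass for Bcl6, Tox2, Klf2, S1pr1, Il7r and Bach2. For Bcl6, Tox2, Klf2, S1pr1, Il7r and Bach2 the log2 differences and their SE were -0.01 ± 0.17, adjusted p = 1; 0.01 ± 0.26, adjusted p = 1; 0.27 ± 0.18, adjusted p = 0.42; 0.20 ± 0.17, adjusted p = 0.56; 0.03 ± 0.23, adjusted p = 1; and 0.09 ± 0.21, adjusted p = 0.91. A p above the threshold does not show that they were alike. Dnase1l3 was likewise high in control TFR cells, at 85.6, 95.5 and 71.8 CPM against 5.1, 1.38 and 1.74 CPM in control Treg libraries (-0.88 ± 0.67, adjusted p = 0.5).

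Several mediators differed. Il10 was at 96.5, 105 and 165 CPM in control TFR and 108, 101 and 91.9 CPM in control Treg libraries, which overlapped. The difference between treated and control mice was 1.62 ± 0.32, adjusted p = 0.0036. Lag3 was at 23.1, 23.5 and 30.3 against 29.8, 31.1 and 32 CPM in control mice (difference 2.13 ± 0.29, adjusted p = 0.00012). Ccl5 was lower in control TFR than control Treg libraries, at 7.94, 13 and 6.25 against 25.3, 25.5 and 28.4 CPM, the reverse of treated mice (difference 3.14 ± 0.29, adjusted p = 1.6e-06). Jchain, at 2.81, 3.59 and 7.01 against 6.96, 9.84 and 6.99 CPM in control mice, and Igkc differed by 3.09 ± 0.36, adjusted p = 3.1e-05 and 1.73 ± 0.21, adjusted p = 5.4e-05. Among metabolic genes Gapdh, Ldha and Atp5b differed by 1.04 ± 0.14, adjusted p = 0.00011; 0.88 ± 0.16, adjusted p = 0.002; and 0.86 ± 0.09, adjusted p = 7.6e-06. In control mice their log2FC were -0.26 ± 0.10, adjusted p = 0.098; -0.17 ± 0.11, adjusted p = 0.41; and -0.24 ± 0.06, adjusted p = 0.021.

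In the other direction, every control TFR value of the integrin chains and of CD73 lay above every control Treg value. Itgb1 was at 449, 397 and 362 against 352, 316 and 328 CPM in control mice (difference -1.70 ± 0.45, adjusted p = 0.023). Itga4 was at 704, 613 and 669 against 472, 492 and 499 CPM (difference -1.55 ± 0.15, adjusted p = 3.2e-06). Nt5e was at 278, 275 and 236 against 192, 181 and 174 CPM (difference -1.54 ± 0.16, adjusted p = 5.1e-06). Ikzf2 was higher in control TFR cells, at 1005, 1004 and 990.5 against 622, 661 and 638 CPM (difference -0.91 ± 0.16, adjusted p = 0.0016). So was Mki67, at 495, 265 and 419.7 against 121, 115 and 90.1 CPM (difference -1.52 ± 0.44, adjusted p = 0.038). Adamts6 and Tespa1, an adaptor of T cell receptor signalling, differed by -1.77 ± 0.15, adjusted p = 7.7e-07 and -1.86 ± 0.35, adjusted p = 0.0027. Of the naive state genes, Satb1 and Ccr7 had the larger drop in control mice, Satb1 from 762, 779 and 758 CPM in Treg to 167, 148 and 128 CPM in TFR libraries (difference 1.90 ± 0.13, adjusted p = 6.4e-08). Ccr7 went from 788, 758 and 728 to 242, 249 and 295 CPM (difference 1.26 ± 0.15, adjusted p = 3.5e-05). Igfbp4 and Il12rb2 had 0 reads in all 3 control TFR libraries. Their means in control Treg libraries were 9.53 and 32.1 CPM. Since many genes were at 0 in one control TFR library and not in another, these zeros set no firm level.

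**Figure D5:**
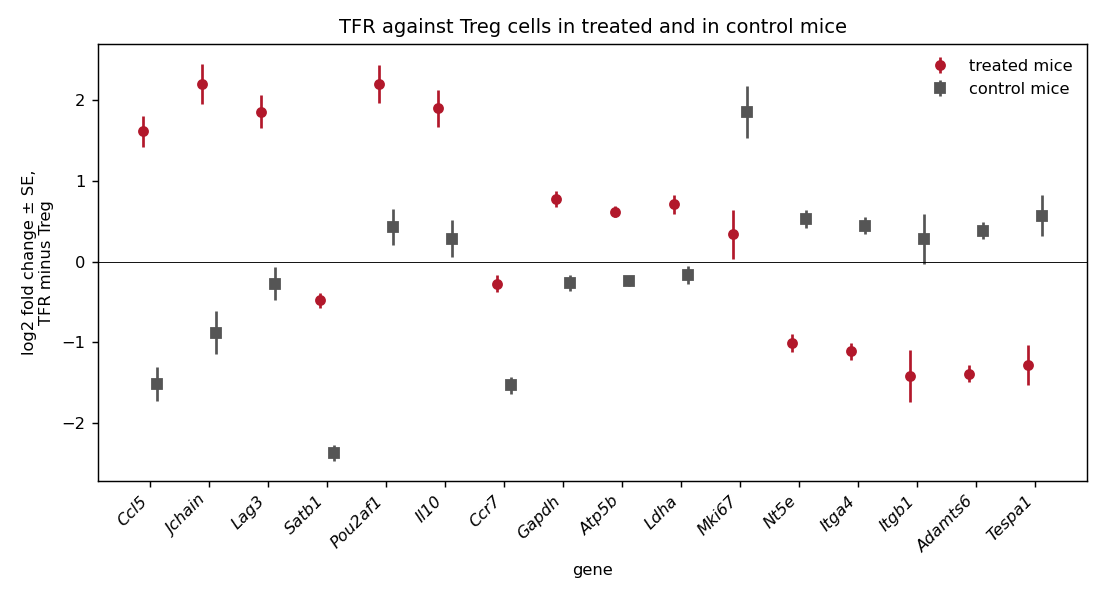
Log2 fold change, TFR minus Treg cells, with its standard error (bars) in treated mice (red circles) and control mice (grey squares) for 16 genes whose difference between treated and control mice passed the threshold. Ccl5 and Jchain are above 0 in treated and below 0 in control mice, whereas Nt5e, Itga4 and Adamts6 are below 0 in treated and above 0 in control mice.

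Finally, the step from Treg to TFR cells was set beside the step from Tconv to TFH cells in the same treatment, which uses other libraries. There 1944 genes (10.3%) were higher and 1460 (7.77%) lower, 18.1% in all. Of the 334 genes that rose in TFR cells 185 also rose in TFH cells, 55.4% of the first and 9.52% of the second. Another 36 of them fell in TFH cells. Of the 532 that fell in TFR cells 282 also fell in TFH cells, 53% and 19.3%, and 49 rose there. The difference of the steps passed for 1404 genes (7.47%), 634 (3.37%) with a larger and 770 (4.1%) with a smaller value in the regulatory pair, and for 820 without the kidney libraries. Tox2 and Bcl6 moved further from Tconv to TFH than from Treg to TFR cells, while for Batf and Ascl2 the difference of the steps did not pass (-0.11 ± 0.19, adjusted p = 0.86; -2.46 ± 2.21, adjusted p = 0.65). Tox2 went from 4.81, 4.86 and 5.01 CPM in Tconv to 209, 274 and 195 CPM in TFH libraries (difference of the steps -3.68 ± 0.27, adjusted p = 6.7e-09). Bcl6 went from 34.9, 34 and 33.6 to 163, 155 and 135 CPM (difference -1.32 ± 0.17, adjusted p = 1.1e-05). Cebpa stood at 0.756, 0.83 and 0.613 CPM and Rgs9 at 0.957, 0.712 and 0.807 CPM in Tconv libraries, below every Treg value, and the steps differed by -4.40 ± 0.48, adjusted p = 1.4e-06 and -4.63 ± 0.29, adjusted p = 6.1e-10. Il10 and Lag3 also rose in TFH cells, to 136, 139.9 and 117 and 107, 129.8 and 96.2 CPM (differences -2.05 ± 0.32, adjusted p = 0.00015 and -2.54 ± 0.29, adjusted p = 2.3e-06). Ccr7 and Satb1, which were at 1107, 1034 and 1103 and 1497, 1561 and 1580.5 CPM in Tconv libraries, were at 116, 97 and 100.3 and 126, 129 and 117 CPM in TFH libraries. Treg libraries lay between, and the steps differed by 3.10 ± 0.15, adjusted p = 2.7e-11 and 3.16 ± 0.13, adjusted p = 3.5e-12. Itgb1, Itga4, Nt5e and Adamts6 fell from Treg to TFR but not from Tconv to TFH cells, where their log2FC were 0.40 ± 0.31, 0.20 ± 0.11, 1.63 ± 0.11 and 0.11 ± 0.10. The steps differed by -1.82 ± 0.45, adjusted p = 0.011; -1.32 ± 0.15, adjusted p = 2.4e-06; -2.64 ± 0.16, adjusted p = 3.1e-10; and -1.50 ± 0.15, adjusted p = 3.2e-07. Klf2 fell in both pairs, from 1138, 1112 and 1236 to 372, 425 and 365 CPM in the conventional one, and the steps differed by 0.22 ± 0.17, adjusted p = 0.58.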

How the data were processed

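Total RNA of sorted CD4+ T cell subsets had been sequenced after rRNA depletion, per the labels' protocols. The deposited values are raw counts per gene, made by the authors with STAR and featureCounts on mm10 per the submitters' processing notes; their versions, the annotation and the strand setting are not stated there. Without strand, reads of overlapping genes cannot be told apart, and close paralogs may exchange reads.

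All 24 libraries (3 in each of 8 groups of subset and treatment) entered 1 fit in edgeR 4.0.16 under R 4.3.3: filterByExpr by group, TMM scaling, 8 group means, quasi-likelihood F test, two-sided, Benjamini-Hochberg adjustment over the 18789 genes tested, threshold 0.05. The SE of a log2 fold change is its size divided by the square root of F. CPM use TMM-scaled totals. Differences between contrasts were tested in the same fit. The steps were tested on simulated data. Chi-square per degree of freedom between libraries of a treated group was 4.72 to 57.3, so none were merged.

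Alternatives were another scaling, other filters, DESeq2 1.42.0, limma 3.58.1, fewer libraries and a replicate block. Named genes (121 by rule) were the 12 per direction of largest change among calls without overlap that also passed without the kidney libraries and whose higher group had a mean of 5 CPM or more (no predicted, immunoglobulin and receptor segment genes), the 4 of smallest p in each of 20 pathway lists, the 5 per direction leading each difference, and genes fixed by name. Results on some genes are not reported here. Members and lists were chosen with earlier results of these data known. Promoter letters are RefSeq's on GRCm38.p6.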

Additional observations from a re-analysis of the deposited data

Results flagged for a closer look

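For 1408 genes the TFR against Treg difference itself differed between treated and control mice (edgeR, adjusted p under 0.05). Treatment, depth and the share of mitochondrial counts cannot be told apart between these mice. Values below are log2 differences, treated minus control, of the named genes among them.

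The values compare the step between the cell types, not levels in treated mice with levels in control mice. Larger in treated mice was the TFR minus Treg difference of several groups of genes. Mediators and secretory genes among them were Gzmb (3.98), Ccl5 (3.14), Jchain (3.09), Lag3 (2.13), Pou2af1 (1.78), Igkc (1.73) and Il10 (1.62). Gzmb, whose step did not pass in treated mice, stood at 0.194, 3.49 and 0.379 CPM in control TFR and 5.65, 6.68 and 7.9 CPM in control Treg libraries. The naive genes Satb1 (1.90) and Ccr7 (1.26) belonged here with the larger drop in control mice. Receptors and signalling genes were Tnfrsf18 (1.02), Fosl2 (0.98), Rgs9 (0.98), Nfkb2 (0.60), Tnfrsf9 (0.59) and Nfkbia (0.55). Metabolic genes were Gapdh (1.04), Ldha (0.88), Atp5b (0.86), Pkm (0.73), mt-Nd5 (0.59) and Aldoa (0.58), and the chaperones were Hspd1 (0.65) and Hspa5 (0.44). Among cycle genes, the difference was larger in treated mice for the helicase genes Mcm2 (1.32) and Mcm5 (1.06). It was smaller for Mki67 (-1.52) and Top2a (-0.77).

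The difference was also smaller in treated mice for Ttn (-1.96), Tespa1 (-1.86), Adamts6 (-1.77), Itgb1 (-1.70), Itga4 (-1.55), Nt5e (-1.54) and Slfn8 (-1.25). The same held for Cd84 (-1.22), Ifi203 (-1.13), Slamf6 (-1.11), Tnfsf8 (-0.999), Il6ra (-0.97), Cd40lg (-0.95), Ikzf2 (-0.91) and Runx1 (-0.86).

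Igfbp4 and Il12rb2, whose difference was larger in treated mice by this test, had no reads in control TFR libraries. A floor of 3 reads over that group would put them at least 78.7-fold and at least 265-fold lower there than in control Treg libraries. That floor covers counting error only, and 1143 genes were at 0 in one control TFR library and at 5 CPM or more in another, so it does not bound their level.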

How the results depend on the processing

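Counts of genes depended on the spread assumed and on the libraries used. Of the 334 higher genes the count became 567 with a minimum mean of 10 CPM, 808 with DESeq2, 4236 with limma voom and quality weights, 3168 with only the compared libraries, 143 without the 5 kidney libraries, and 154 to 260 with 1 library left out. For the 532 lower genes these were 932 with DESeq2, 3529 with limma, 3559 with only the compared libraries, 187 without the kidney libraries and 287 to 353 with 1 library left out. The 1408 differences from control mice became 864 without a low-count filter, 2593 with DESeq2, 2446 with only the compared libraries, 430 without the kidney libraries and 797 to 1668 with 1 library left out. The 1404 differences from the TFH against Tconv step became 2522 with DESeq2, 7057 with limma, 6178 with only the compared libraries and 820 without the kidney libraries, and 1065 to 1240 with 1 library left out. The cause of these shifts was not tested.

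Same-numbered TFR and Treg libraries had deviations correlated at -0.90, 0.80 and -0.89. The kidney libraries TFR 1 and Treg 3 correlated at 0.935 with each other, and each negatively with the remaining libraries of the other group. The signs thus followed those libraries, so these values cannot tell whether replicate numbers pair the samples. With the replicate block 300 genes were higher and 478 lower, and the 2 differences gave 1119 and 1294. Of 111 genes named with a fold change or test, 92 passed the threshold, 73 of these without each single library and 75 without the kidney libraries; under relative log expression scaling all 111 kept direction and call. Foxp3, which never passed, changed sign, at -0.015 with only the compared libraries, -0.0044 without TFR 2, -0.017 without TFR 3 and -0.031 without Treg 3 (range -0.031 to 0.106 with 1 library left out), as did Icos at 0.012 without the kidney libraries. Depth of 4848261 to 9622781 counts limits low genes in control TFR libraries.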
